A study of Mus musculus with 8 samples.

Results

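The genes described here mark the spermatogonia of the mouse testis, the mitotic germ cells from which meiosis is fed. They were a named list of 10 genes, *Id4*, *Gfra1*, *Ret*, *Zbtb16*, *Etv5*, *Nanos2*, *Lin28a*, *Sohlh1*, *Sohlh2* and *Kit*, placed in order from the stem cell to the differentiating spermatogonium. They are 10 of the 24651 genes in the count tables. The question was whether spermatogonial RNA differed between *Morc2b*-/- and wild type testes at postnatal day 12, an age at which germ cells of the first wave have entered early meiotic prophase. Of the 10 genes, 8 had enough counts to be tested, and 0 of these 8 differed between the genotypes at an adjusted p-value under 0.05 (0% of all 13507 genes tested were called).

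RNA came from 8 pairs of whole testes of postnatal day 12 males on a mixed strain background, 4 labelled wild type and 4 labelled *Morc2b*-/-. The text that accompanies the data calls the controls *Morc2b*+/-, whereas the sample labels and the methods call them wild type, and they are called wild type here. In the mutant allele, a PGKNeo selection cassette takes the place of the coding exon in all cells of the animal, and the allele derives from 1 targeted clone of embryonic stem cells. Animals were the offspring of heterozygous parents, and the labels name no treatment. The libraries were poly(A) mRNA libraries made with a stranded kit.

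Spermatogonial stem cells lie on the basement membrane of the seminiferous tubule. Sertoli cells secrete GDNF, which binds the co-receptor GFRA1 and the receptor tyrosine kinase RET on these cells and keeps *Id4*, *Etv5* and other self-renewal genes active. Progenitors that leave this state keep *Zbtb16* and *Lin28a* for a time. Under retinoic acid they then switch on *Kit*, the receptor for stem cell factor, with the help of the transcription factors SOHLH1 and SOHLH2, and commit to differentiation.

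Values are in CPM, the unit of edgeR for counts scaled to 1 common library size, here by the TMM method. Means are given with the SD over the 4 samples of a genotype. Each sample held between 27144796 and 36941755 counts on transcripts. The targeted gene was examined first. The mean level of *Morc2b* was 17.2 ± 16.5 CPM for wild type and 0.989 ± 1.54 CPM for *Morc2b*-/- samples. The library labelled wild type replicate 3, at 0.857 CPM, lay below the library labelled *Morc2b*-/- replicate 3, at 3.29 CPM, so in this respect these 2 libraries went against their labels. Wild type replicates 1, 2 and 4 were at 11.7, 16.2 and 40.0 CPM. Within wild type, *Morc2b* rose in the same order as the summed leptotene and zygotene genes given below. It did not in *Morc2b*-/- testes, where replicate 4 had the highest such sum and 0.0688 CPM of *Morc2b*. The cause of these values was not tested. Spermatid genes (*Tnp1*, *Tnp2*, *Prm1*, *Prm2*, *Acrv1*, *Spaca1*) reached a sum of 146 CPM in replicate 1 of wild type and of 295 CPM in the library labelled *Morc2b*-/- replicate 3, against 1.85 to 32.8 CPM in the other 6 samples. Of 6 epididymal genes, 3 had under 10 counts in all samples together, and the 6 summed to 249 CPM in wild type replicate 1, against 0.0357 to 13.4 CPM elsewhere. Markers of the somatic cells of the testis were present. The 10 Sertoli cell genes summed to between 2112 and 2468 CPM in each sample. *Gata4*, listed under 2 transcripts, was the only 1 of them near 0 in counts. Pan-germ genes (*Ddx4*, *Dazl*, *Dnd1*, *Mael*, *Tdrd1*, *Tex14*) summed to 343 to 405 CPM in wild type and 334 to 391 CPM in *Morc2b*-/- testes. *Mael* alone held 89.9% of the counts of this list, and *Tdrd1* and *Tex14* had too few counts to be tested.

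The receptor genes *Gfra1* and *Kit* had almost no counts. *Gfra1*, the GDNF co-receptor (chromosome 19, 58310094 to 58530399, minus strand, NCBIM37), had 1 count in all 8 samples together and 3 listed RefSeq transcripts. *Kit* (chromosome 5, 75970941 to 76052747, plus strand) had 2 counts, both in *Morc2b*-/- replicate 1, and 2 listed transcripts. A read lying on several listed transcripts was put aside as ambiguous, which took 26.8% to 28.8% of all reads with a unique alignment. Whether this took the reads of *Gfra1* and *Kit* was not tested. Their counts are not read here as levels of expression, and neither gene was compared between genotypes. The same limit applies to other genes with few counts and several listed transcripts. *Gata4*, *Tdrd1*, *Tex14*, *Eomes*, *Egr3* and *Tspan8* are among them. *Ret* is listed under 2 transcripts as well, and its counts fell on 1 of them. Its values below cover only the reads assigned to that transcript, not reads that lay on both. The other 7 genes are each listed under 1 transcript.

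**Figure D1:**
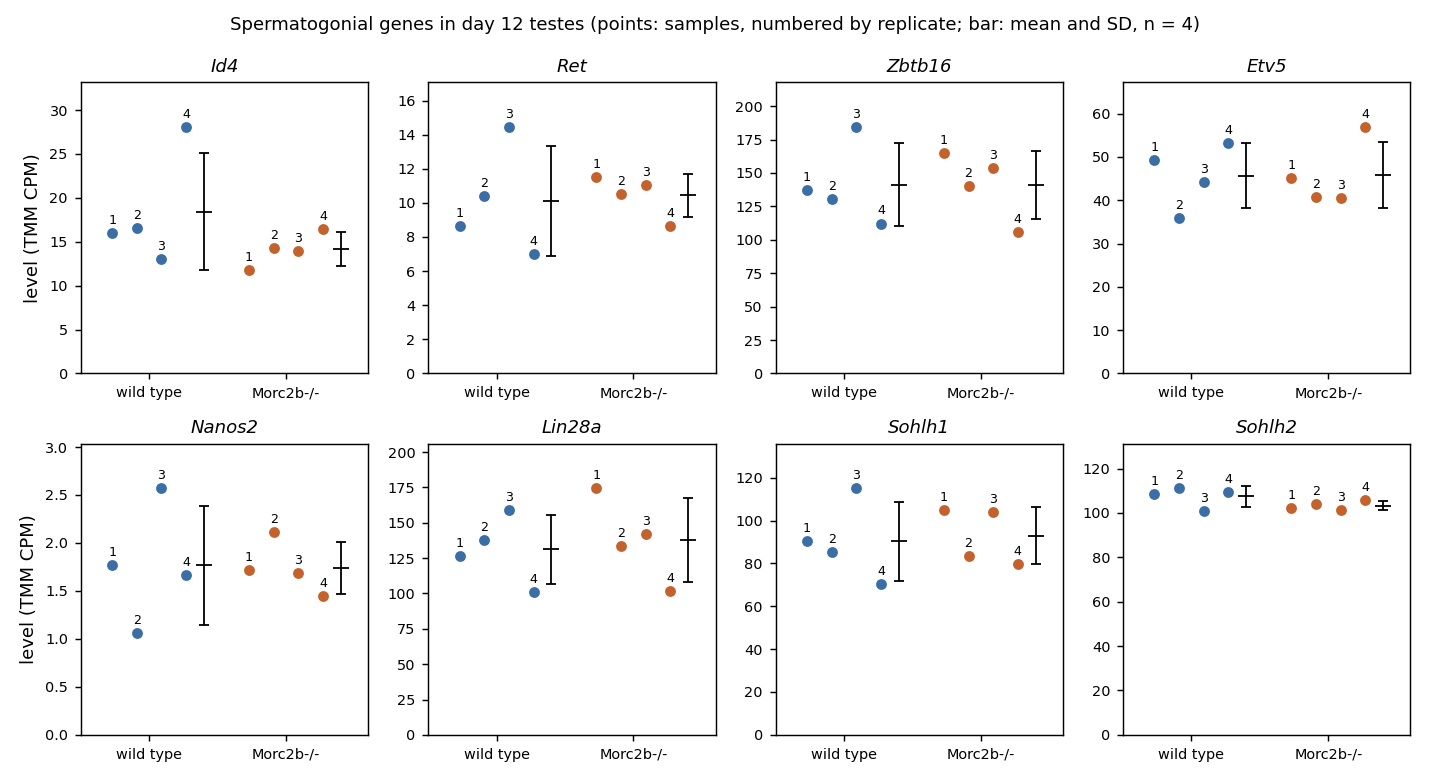
Level of the 8 measured genes in each sample, in TMM-normalised CPM on a linear axis that starts at 0. Points are samples numbered by replicate, with the mean and SD of each genotype (n = 4) beside them. In every panel the 2 genotypes overlap, and *Sohlh2* shows the narrowest scatter, from 101 to 111 CPM.

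The stem cell end was examined first. *Id4*, an inhibitor of basic helix-loop-helix transcription factors that is enriched in spermatogonial stem cells (chromosome 13, 48356796 to 48359405, plus strand), was at 16.0, 16.6, 13.0 and 28.1 CPM in wild type replicates 1 to 4. It was at 11.8, 14.3, 14.0 and 16.5 CPM in *Morc2b*-/- replicates 1 to 4. The genotypes overlapped, and wild type replicate 4 stood above the 7 other samples. Mean levels were 18.4 ± 6.64 CPM (SD, n = 4) for wild type and 14.1 ± 1.93 CPM (SD, n = 4) for *Morc2b*-/- testes, or -0.38 as a log2 fold change (standard error 0.23, 95% interval -0.89 to 0.13). This was the largest difference among the 8 genes, and it was within the spread between replicates (p = 0.257 in an exact two-sided permutation test, where 4 against 4 samples allow no value below 0.029). Without wild type replicate 4 the log2 fold change was -0.11, and without the library labelled wild type replicate 3 it was -0.52, which passed edgeR's test before but not after adjustment.

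*Ret*, the tyrosine kinase that carries the GDNF signal into the cell (chromosome 6, 118101766 to 118147762, minus strand), was at 8.64, 10.4, 14.5 and 6.98 CPM in wild type replicates 1 to 4. The *Morc2b*-/- values of 11.5, 10.5, 11.1 and 8.66 CPM lay within the wild type range. The log2 fold change was 0.05 (standard error 0.21, 95% interval -0.43 to 0.52). *Etv5*, an ETS factor induced by GDNF that is also expressed in Sertoli cells (chromosome 16, 22381382 to 22439792, minus strand), was at 49.4, 35.8, 44.3 and 53.3 CPM in wild type replicates 1 to 4. In *Morc2b*-/- replicates 1 to 4 it was at 45.1, 40.8, 40.6 and 57.0 CPM. The means differed by 1.00-fold (95% interval 0.796 to 1.26), and the highest sample of each genotype was replicate 4. *Nanos2*, an RNA-binding repressor that holds male germ cells in the undifferentiated state (chromosome 7, 19572873 to 19574311, plus strand), had the fewest counts of the genes tested here. Its counts were 65, 29, 72 and 53 over wild type replicates 1 to 4, and 53, 78, 59 and 42 over the *Morc2b*-/- replicates. The genotypes overlapped, and its interval was the widest of the 8, at 0.646-fold to 1.5-fold around a fold of 0.985.

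The genes that stay on in progenitors were examined next. *Zbtb16*, which encodes the zinc finger repressor PLZF required for self-renewal (chromosome 9, 48462416 to 48644050, minus strand), was at 138, 131, 185 and 112 CPM in wild type replicates 1 to 4. It was at 165, 140.4, 153 and 106 CPM in *Morc2b*-/- replicates 1 to 4. The genotype means were 141 ± 30.8 CPM and 141 ± 25.4 CPM (SD, n = 4 each), with a 95% interval of the fold of 0.766 to 1.30. *Lin28a*, an RNA-binding protein that blocks let-7 maturation and is abundant in progenitors (chromosome 4, 133559245 to 133574756, minus strand), was at 126, 138, 159 and 101 CPM in wild type replicates 1 to 4. The *Morc2b*-/- values were 174, 134, 142 and 102 CPM, and the log2 fold change was 0.07 (standard error 0.17, 95% interval -0.32 to 0.47). In both genes replicate 4 was the lowest sample of either genotype, and the genotypes overlapped.

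*Sohlh1* and *Sohlh2* encode germ cell-specific basic helix-loop-helix factors that act as partners at the start of differentiation. *Sohlh1* (chromosome 2, 25698515 to 25702768, minus strand) was at 90.3, 85.2, 115 and 70.6 CPM in wild type replicates 1 to 4, and at 105, 83.3, 104 and 79.5 CPM in *Morc2b*-/- replicates 1 to 4. The genotypes overlapped, and the log2 fold change was 0.04 (standard error 0.15, 95% interval -0.30 to 0.38). *Sohlh2* (chromosome 3, 54985950 to 55013879, plus strand) was at 108, 111, 101 and 109 CPM in wild type replicates 1 to 4, and at 102, 104, 101 and 106 CPM in *Morc2b*-/- replicates 1 to 4. The difference of -0.06 on the log2 scale (standard error 0.05) was again not past the test (exact two-sided permutation test, p = 0.171). Its interval, a fold of 0.888 to 1.04, was the narrowest of the 8 genes. The coefficient of variation of *Sohlh2* was 4.26% in wild type and 1.85% in *Morc2b*-/- testes, against 20.5% and 14.4% for *Sohlh1*. Only 2.49% of the 13507 genes tested had a smaller SD of log2 CPM within genotypes than *Sohlh2*, against 62.6% for *Sohlh1*. The ratio of *Sohlh1* to *Sohlh2* CPM ranged from 0.645 in wild type replicate 4 to 1.14 in the library labelled wild type replicate 3, and from 0.752 to 1.03 in *Morc2b*-/- testes.

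The *Sohlh1* promoter carries a hexamer that basic helix-loop-helix factors recognise, and it is shown because SOHLH1 and SOHLH2 belong to that family of factors. In the 300-base window of RefSeq from 250 bases before to 50 bases after the start (GRCm38.p6), the palindromic E-box CACGTG was found 3 times, with the hexamer in capitals and each stretch written 5′ to 3′ on the minus strand of chromosome 2.
Sohlh1, 231 bases before the start, chr2:25847465-25847488: gcaagctatCACGTGggctgtgat
Sohlh1, 211 bases before the start, chr2:25847445-25847468: tgatcaggtCACGTGgtctgaagg
Sohlh1, 192 bases before the start, chr2:25847426-25847449: gaaggtctgCACGTGaagcaggga

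CACGTG reads the same on both strands. At least 1 copy was present in 7.15% of 32851 RefSeq promoter windows of this length, and 3 or more copies in 0.0883% of them. Some of these windows overlap, since a gene with several starts has several. The windows of *Id4*, *Gfra1*, *Etv5*, *Nanos2*, *Lin28a*, *Sohlh2* and *Kit* held 0 copies, and 2 genes (*Ret* and *Zbtb16*) had no window. The looser form CANNTG, which includes CACGTG, occurred 5 times in the *Sohlh1* window and 1 time in the *Sohlh2* window, and 72.3% of all windows held it. It occurred 3 times in the *Gfra1* window, and 17.6% of all windows held 3 or more copies. A second palindrome, CAGCTG, was also searched and was present in 16.3% of all windows. The *Sohlh1* and *Sohlh2* windows held 0 copies of it, and the windows of *Gfra1* and of 1 *Etv5* start held 1 each. A match of letters in a window is a description, and no binding was measured.

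**Figure D2:**
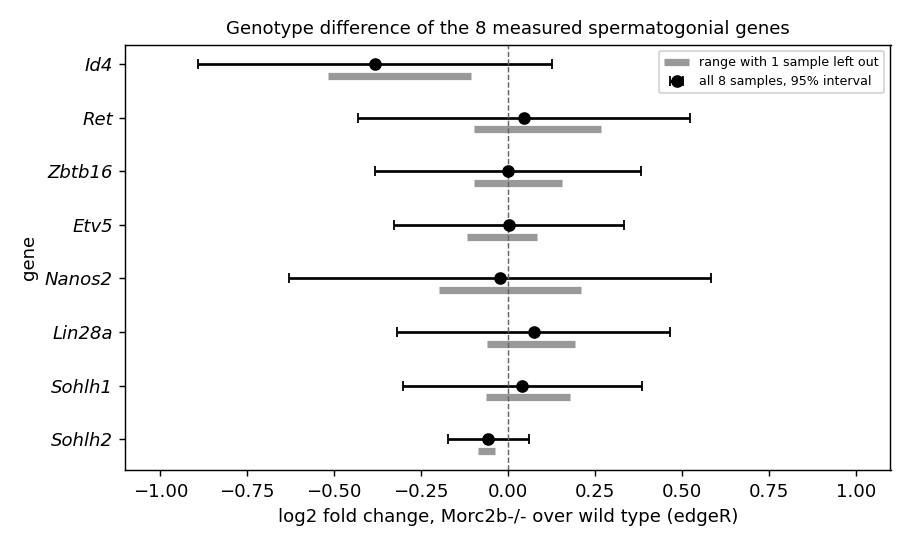
Log2 fold change of the 8 measured genes in *Morc2b*-/- over wild type testes from edgeR, with 95% intervals (black) and the range when 1 sample was left out at a time (grey). All 8 intervals span 0, from the narrowest in *Sohlh2* (-0.17 to 0.06) to the widest in *Nanos2* (-0.63 to 0.58).

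Across the table as a whole, 0 of the 13507 genes tested were called by edgeR's quasi-likelihood test after Benjamini-Hochberg adjustment. The targeted gene *Morc2b* was among the genes that edgeR did not call. DESeq2 called 1 gene, which was not in the list. At an unadjusted p-value under 0.05 edgeR called 249 genes, or 1.84%, of which 1.34% were lower and 0.503% higher in *Morc2b*-/- testes. Among the 8 spermatogonial genes, 0 passed at either threshold, and the smallest unadjusted p-value was 0.124, for *Id4*. Values of the genotypes did not overlap in 1.29% of all genes tested (0.881% lower and 0.407% higher) and in 0 of these 8 genes. Of the 8 log2 fold changes, 4 were below 0 and 4 above, with a median of 0.0016 beside a median of 0.0022 over all genes tested. In whole testes, fewer cells of a type and less RNA per cell cannot be told apart, and a gain in one that offset a loss in the other would not be seen. These intervals bound the difference for each gene but do not show that the genotypes were alike.

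Levels can be compared between genes only per length of RNA. CPM was divided by the length of the longest coding mRNA of each gene in the NCBIM37 annotation, for the 7 genes with 1 listed transcript. The counts were on RefSeq transcripts, whose own lengths were not used. *Sohlh1*, with 8 exons and 1289 bases, was then the highest at a mean of 71.0 CPM per kilobase over the 8 samples (54.7 to 89.3). *Sohlh2* followed at 44.6 (42.6 to 47.0) and *Lin28a* at 38.4 (28.9 to 49.8), while *Zbtb16* was at 27.7 (20.8 to 36.2). *Etv5* was at 11.5 (9.02 to 14.3), *Id4* at 9.80 (7.09 to 16.9) and *Nanos2* at 1.22 (0.739 to 1.79) CPM per kilobase.

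The gene of differentiation onset with the highest level per length was thus 58.3-fold above the stem cell gene with the lowest. Of the neighbours in this order, *Sohlh1* was above *Sohlh2* and *Zbtb16* above *Etv5* with no overlap of the samples, as was *Id4* above *Nanos2*. *Lin28a* was above *Zbtb16* within each of the 8 samples, although their ranges overlapped. *Sohlh2* exceeded *Lin28a*, and *Etv5* exceeded *Id4*, in 6 of 8 samples each, and these neighbours did not differ beyond their spread.

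**Figure D3:**
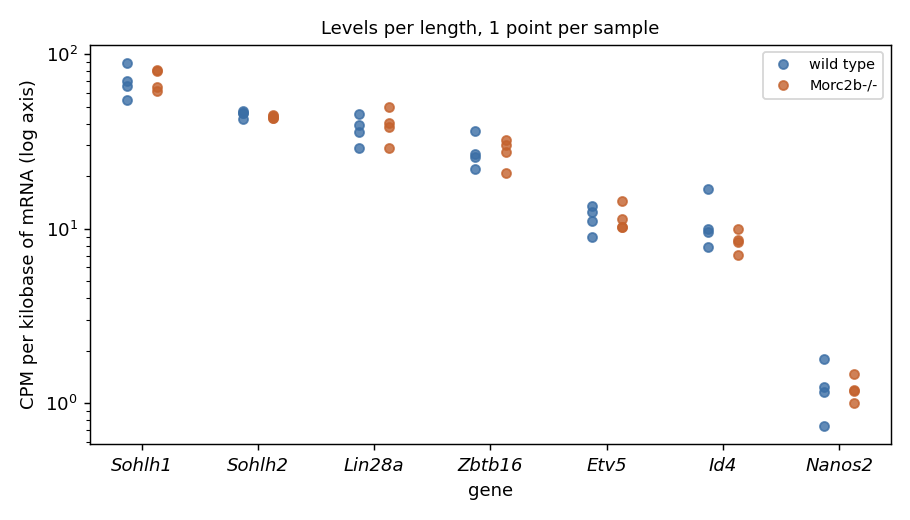
CPM per kilobase of mRNA for the 7 genes listed under 1 transcript, on a log axis, with 1 point for each of the 4 wild type and 4 *Morc2b*-/- samples. Genes are ordered by their mean, from *Sohlh1* at 71.0 to *Nanos2* at 1.22.

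The order of the samples within each genotype was compared next. *Ret*, *Zbtb16*, *Lin28a* and *Sohlh1* were each lowest in replicate 4 of both genotypes. In wild type, the library labelled replicate 3 was the highest for all 4 of these genes, at 1.57-fold (*Lin28a*) to 2.07-fold (*Ret*) the level of replicate 4. In *Morc2b*-/- testes, replicate 1 was the highest for the same 4 genes, at 1.32-fold (*Sohlh1*) to 1.71-fold (*Lin28a*) the level of replicate 4. *Id4* and *Etv5* ran the other way and were highest in replicate 4 of both genotypes. The ratio of *Id4* to *Zbtb16* CPM was 0.25 in wild type replicate 4, against 0.0704 in the library labelled wild type replicate 3. It was 0.155 in *Morc2b*-/- replicate 4, against 0.0714 in *Morc2b*-/- replicate 1. This order was noticed in the values and was not tested. Among all genes tested, 18% were lowest in replicate 4 of both genotypes and 18% were highest there, compared with 4 and 2 of the 8 spermatogonial genes.

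**Figure D4:**
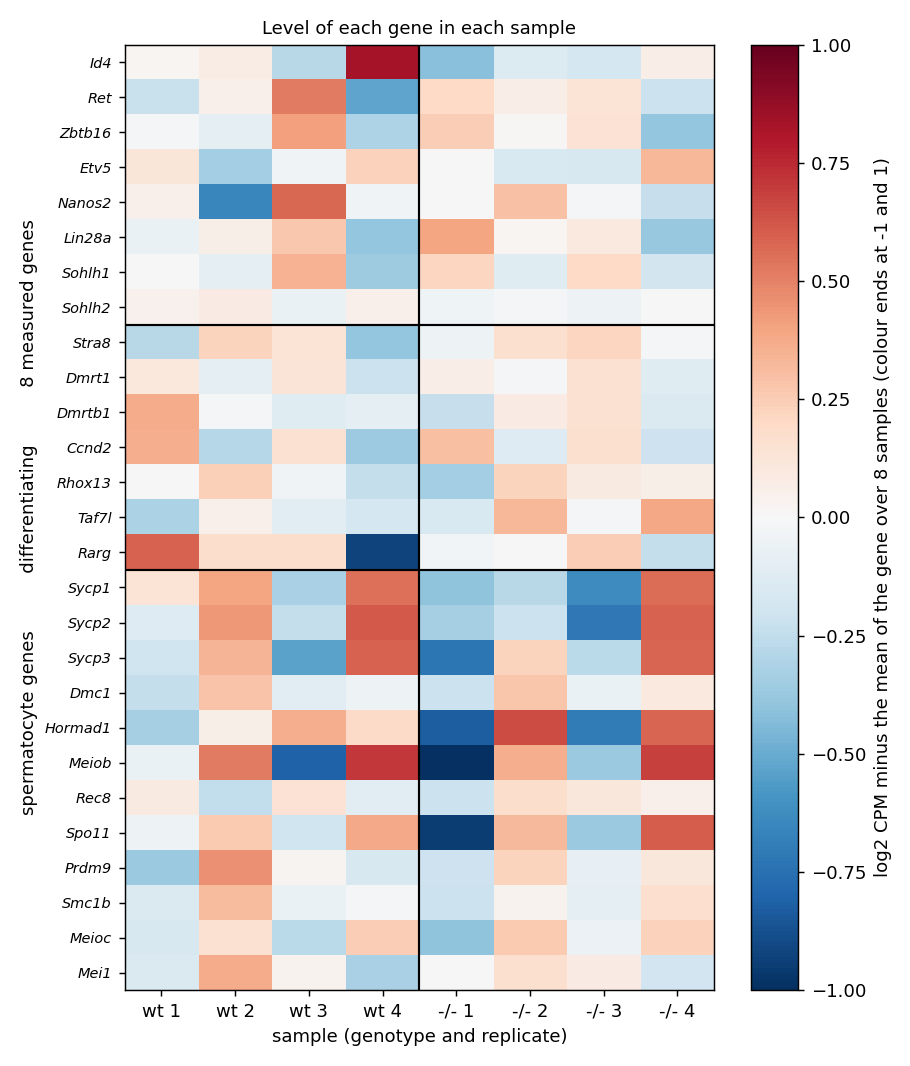
Log2 CPM of each gene in each sample minus the mean of that gene over the 8 samples, for the 8 measured spermatogonial genes, 7 genes of differentiating spermatogonia and 12 genes of leptotene and zygotene spermatocytes (colour ends at -1 and 1). *Ret*, *Zbtb16*, *Lin28a* and *Sohlh1* are blue in replicate 4 of both genotypes, and *Sohlh2* is nearly white throughout. The spermatocyte genes are mixed there. *Sycp1*, *Sycp2*, *Sycp3*, *Meiob*, *Hormad1*, *Spo11* and *Meioc* are above their mean in both of these samples, and *Mei1* is below it in both. *Dmc1*, *Rec8*, *Prdm9* and *Smc1b* are below their mean in wild type replicate 4 and above it in *Morc2b*-/- replicate 4.

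Genes of the first meiotic cells were set beside this order. The sum of leptotene and zygotene genes was 3725 CPM for wild type and 3809 CPM for *Morc2b*-/- replicate 4, the highest sum of each genotype, against 2384 CPM in the library labelled wild type replicate 3. *Sycp1*, *Sycp2* and *Sycp3* held most of the sum in both replicate 4 samples. They were at 733, 1031 and 667 CPM in wild type and 735, 1016 and 661 CPM in *Morc2b*-/- replicate 4. The sums thus follow these genes more than the list as a whole. In *Morc2b*-/- replicate 1 it was 2168 CPM, the lowest of the 8 samples, and in the library labelled *Morc2b*-/- replicate 3 it was 2252 CPM. Wild type replicate 2 had a sum of 3580 CPM, near that of wild type replicate 4. That sample was not the lowest of wild type for *Ret*, *Zbtb16*, *Lin28a* or *Sohlh1*. Of the 12 genes of this list, 5 (*Sycp1*, *Sycp2*, *Sycp3*, *Meiob* and *Spo11*) were highest in replicate 4 of both genotypes and 1 (*Mei1*) was lowest there, beside the 18% of all genes tested in each direction. The other 6 (*Dmc1*, *Hormad1*, *Rec8*, *Prdm9*, *Smc1b* and *Meioc*) were neither. *Sycp3*, a component of the chromosome axis, was at 667 and 661 CPM in these 2 samples and at 305 and 267 CPM in the library labelled wild type replicate 3 and *Morc2b*-/- replicate 1. Between genotypes, the sums overlapped, at 2384 to 3725 CPM in wild type and 2168 to 3809 CPM in *Morc2b*-/- testes. The 10 spermatogonial genes together summed to 483 to 634 CPM in wild type and 477 to 616 CPM in *Morc2b*-/- testes. The part of the spermatocyte genes in the spermatogonial values was not tested.

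Further genes of undifferentiated spermatogonia were compared in the same fit. Of 25 listed genes, 22 were tested, 0 passed at an unadjusted p-value under 0.05, and the genotypes overlapped in all 22. The log2 fold change was above 0 in 16 and below 0 in 6 of them, with a median of 0.07. The highest in CPM were *Uchl1*, a deubiquitinase used as a spermatogonial marker, with means of 459.7 ± 38.0 and 489 ± 18.0 CPM for wild type and *Morc2b*-/- testes (SD, n = 4), and the adhesion receptor gene *Adgra3* at 461 ± 34.2 and 498 ± 44.3 CPM. *Taf4b*, which encodes a germ cell TFIID subunit, was at 281 ± 36.7 and 285 ± 29.5 CPM, and *Foxo1*, a transcription factor of stem cell maintenance, at 214 ± 12.6 and 224 ± 9.90 CPM. In this list too, 8 of 22 genes were lowest in replicate 4 of both genotypes and 0 were highest there, beside 18% of all genes tested in each direction. Among the 8 were *Sall4*, *Sox3*, *Nanos3* and *Neurog3*. This order was not particular to undifferentiated spermatogonia. Replicate 4 of both genotypes was also lowest for 3 of 7 genes of differentiating spermatogonia, with 0 highest there. The same held for 3 of 6 spermatid genes, but *Prm1* and *Prm2* among them had 0 counts in both samples. Of 9 Sertoli cell genes, 2 were lowest and 2 highest there, or 22.2% each way, near the 18% of all genes tested. *Eomes*, *Egr3* and *Tspan8* had too few counts to be tested.

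In differentiating spermatogonia, where *Kit* could not be read, 7 of 9 listed genes were tested, and 0 passed at an unadjusted p-value under 0.05. *Taf7l*, a TAF7 paralogue of germ cells, came nearest, with 566 ± 59.7 and 692 ± 125 CPM for wild type and *Morc2b*-/- testes (SD, n = 4). Its log2 fold change was 0.29 (standard error 0.13), with p = 0.052 in edgeR's test before adjustment and p = 0.171 in the exact two-sided permutation test. *Stra8*, which responds to retinoic acid before meiosis, was at 284 ± 58.6 and 313 ± 28.5 CPM. *Dmrt1*, which restrains meiotic entry in spermatogonia, was at 408 ± 46.0 and 418 ± 33.6 CPM, and the cyclin gene *Ccnd2* at 294 ± 71.2 and 304 ± 50.6 CPM. The genotypes overlapped in each of these genes. *Dnmt3a* and *Dnmt3b*, with 3 and 9 listed transcripts, had 2 and 0 counts.

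The signals that reach spermatogonia could be read in part only. Of 14 listed ligands and receptors, 5 were tested, and *Gdnf* had 1 count over 4 listed transcripts. *Kitl*, the KIT ligand made by Sertoli cells, was at 1.14 ± 0.22 and 0.812 ± 0.155 CPM for wild type and *Morc2b*-/- testes (SD, n = 4), on the few reads assigned to its 2 transcripts. Its log2 fold change of -0.48 (standard error 0.23) was not past the test (edgeR before adjustment, p = 0.067, and exact two-sided permutation test, p = 0.0857). The chemokine gene *Cxcl12* was at 90.5 ± 13.6 and 85.6 ± 6.03 CPM, and its receptor gene *Cxcr4* at 19.5 ± 4.95 and 20.5 ± 4.69 CPM. *Gfra3*, the artemin co-receptor, was at 5.08 ± 0.730 and 5.17 ± 0.474 CPM, and *Fgf2* at 1.84 ± 0.455 and 2.46 ± 0.631 CPM. After adjustment over all genes tested, 0 of the 5 passed edgeR's test.

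**Figure D5:**
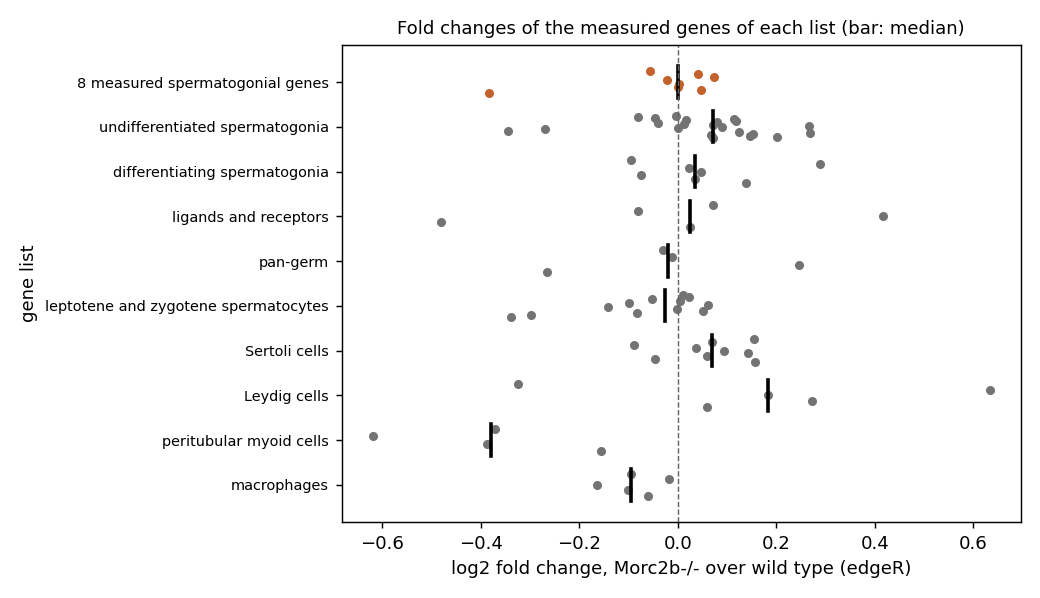
Log2 fold change in *Morc2b*-/- over wild type testes for the tested genes of each list (points) with the list's median (bar). The 8 spermatogonial genes lie between -0.38 and 0.07, and the 22 further genes of undifferentiated spermatogonia lie between -0.34 and 0.27.

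Markers of other cells of the testis were set beside these values. Sertoli cell genes summed to 2112 to 2390 CPM in wild type and 2196 to 2468 CPM in *Morc2b*-/- testes, and Leydig cell genes to 119 to 593 and 123 to 650.3 CPM. Peritubular myoid genes summed to 784 to 1694 CPM in wild type, with wild type replicate 1 the highest, and to 809 to 999 CPM in *Morc2b*-/- testes. Macrophage genes summed to 181 to 262 CPM over the 8 samples. At an unadjusted p-value under 0.05, 0 of the 23 tested genes of these 4 lists passed. Without wild type replicate 1 and the library labelled *Morc2b*-/- replicate 3, the 2 samples with the most spermatid RNA, 0 of the 8 spermatogonial genes passed at an unadjusted p-value under 0.05, and the same count was 0 without the 2 libraries labelled replicate 3.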

How the data were processed

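Reads were freed of adapters and low-quality bases and aligned to NCBI37/mm9 with Tophat by the authors. The deposited values are raw counts for RefSeq transcripts, 1 table a sample, unpooled and not normalised. The counting program and its strand setting are not given in the sources used here. For their own comparison they used Cufflinks and Cuffdiff. Of 35819 transcripts, 35522 were matched to a symbol by accession in a RefSeq table, and counts were summed to 24651 genes. The test between genotypes was that of edgeR 4.0.16, run in R 4.3.3 (TMM, filterByExpr, glmQLFit and glmQLFTest, genotype only), with p-values adjusted by the Benjamini-Hochberg method over 13507 genes. Standard errors are the absolute log2 fold change over the square root of F, and 95% intervals use the t quantile at the fit's degrees of freedom. Permutation tests used log2 CPM (prior count 2) over 70 labelled splits. Alternatives used DESeq2 1.42.0, limma 3.58.1 (voom) and the settings in the closing section. The fitting steps were tested on simulated data. Samples sharing a replicate number had deviations that correlated between -0.322 and 0.453, so numbers did not pair them. No pair of libraries matched within sampling noise (chi-square per degree of freedom of 5.67 or more).

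The genes and lists were chosen with earlier results of these data known. The named genes are the 10 listed genes, *Morc2b*, and up to 4 of the most abundant tested genes of each other list with any gene past an unadjusted p-value of 0.05 or without overlap. *Kitl*, genes without enough counts, relatives beyond 4 and genes named for their order among samples were named after their values were seen. Gene positions are from GENCODE M1 (NCBIM37), and promoters are RefSeq windows of GRCm38.p6. Figures were drawn with matplotlib 3.10.9. Intervals cover the spread between samples, which were separate pairs of testes.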

Additional observations from a re-analysis of the deposited data

How the results depend on the processing

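No spermatogonial gene was called at an adjusted p-value under 0.05 in any of the 18 alternatives, 2 of which were chosen after seeing the data. Over all genes the count of calls was 0 in each alternative other than DESeq2, which called 1 gene. The 8 log2 fold changes were small, and signs turned where they lay near 0. For *Zbtb16* the value was 0.010 with limma-voom, 0.00083 without a low-count filter, 0.016 scaled to pan-germ genes (89.9% of whose counts are *Mael*), 0.0047 with the replicate block, and 0.11 without the 2 libraries labelled replicate 3. For *Etv5* it was -0.013 with limma-voom and -0.0033 with at least 10 counts in every sample. For *Nanos2* it was 0.035 with limma-voom, 0.019 with the replicate block and 0.22 without the 2 libraries labelled replicate 3. Without wild type replicate 1 and *Morc2b*-/- replicate 3 it was -0.055 for *Ret*, -0.021 for *Sohlh1* and, with its sign kept, 0.093 for *Etv5*. The cause of these turns was not tested. Over the fits that each omit a single sample, log2 fold changes spanned -0.52 to -0.11 for *Id4*, -0.10 to 0.27 for *Ret*, -0.10 to 0.15 for *Zbtb16*, -0.12 to 0.08 for *Etv5*, -0.20 to 0.21 for *Nanos2*, -0.061 to 0.19 for *Lin28a*, -0.063 to 0.18 for *Sohlh1* and -0.09 to -0.04 for *Sohlh2*. Leaving out the library labelled wild type replicate 3 brought *Id4* past the unadjusted threshold in edgeR's quasi-likelihood test, though not past the adjusted threshold. With the replicate block 0 genes were called and 572 genes had an unadjusted p-value under 0.05 in edgeR. The block changed no call of a spermatogonial gene. *Nanos2* had the fewest counts of the 8 genes, and *Gfra1* and *Kit* had too few to be compared.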

Other observations

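Close relatives of the spermatogonial genes were read in the same fit, and 7 of 11 had enough counts. Among the other inhibitors of helix-loop-helix factors, *Id2* was at 101 ± 15.3 CPM in wild type and 108 ± 10.9 CPM in *Morc2b*-/- testes (SD, n = 4) and *Id3* was at 49.8 ± 20.6 and 47.4 ± 5.46 CPM. *Nanos1* was at 41.1 ± 2.85 and 43.6 ± 0.816 CPM, and *Nanos3* at 7.11 ± 1.91 and 7.46 ± 1.93 CPM. *Lin28b*, the paralogue of *Lin28a*, was at 93.0 ± 8.23 and 92.8 ± 9.55 CPM. Log2 fold changes of the 7 relatives ranged from -0.10 to 0.09, and edgeR called 0 of them before adjustment of the p-values. *Id1* and *Id3* were highest in wild type replicate 1, at 31.6 and 78.4 CPM, the sample in which peritubular myoid and epididymal genes also summed highest. The part of those cells in the *Id1* and *Id3* values was not tested.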
